A study of Drosophila melanogaster with 27 samples.

Results

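Antimicrobial peptides are small, mostly secreted proteins with which flies kill invading microbes. In the heads of adult Drosophila melanogaster, 7 genes grouped with such peptides were followed. They are Drs, Mtk, DptB, AttD, Def, BomS2 and edin, chosen by name. Each had 1 probe set carrying its symbol in the array annotation, so that they made up 7 of 11982 named genes and 7 of 18769 probe sets that were not controls. The study precipitated AGO1, the Argonaute protein that carries microRNAs in flies, from head extracts and hybridised RNA of the extract (INPUT) and of the precipitate (IP) to Affymetrix arrays. Wild-type flies living under 12 h light and 12 h dark were collected at 6 Zeitgeber times (ZT, hours after lights on), namely ZT3, ZT7, ZT11, ZT15, ZT19 and ZT23. They gave 11 INPUT and 12 IP arrays, with replicates 1 and 2 at each time except ZT3 of INPUT, where only replicate 1 was analysed here. A genotype written Tim-Dcr gave 1 INPUT and 1 IP array at ZT3 and the same at ZT15. What that name means and in which cells it acts is not given in the labels, which give no sex or exact age for any group.

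In Drosophila, fungi and many Gram-positive bacteria are sensed through the Toll pathway, and Gram-negative bacteria mainly through the Imd pathway. Both end in transcription factors of the NF-kappaB family that switch on peptide genes in the fat body, the counterpart of liver and adipose tissue, part of which lies in the head. Drs (drosomycin) is an antifungal peptide induced through Toll. Mtk (metchnikowin) acts on fungi and bacteria and can be induced through either pathway, and BomS2 belongs to the bomanins, short peptides induced through Toll. DptB (diptericin B) and AttD (attacin D) belong to families induced through Imd and directed at Gram-negative bacteria, and Def (defensin) acts mainly on Gram-positive bacteria. The gene edin, named for its elevation during infection, encodes a secreted peptide.

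Values are log2 expression values as the authors deposited them unless said otherwise, and 1 unit is a doubling. Array medians lay at 6.11 to 6.19 in wild-type INPUT, 4.77 to 4.90 in wild-type IP, 5.66 to 5.93 in Tim-Dcr INPUT and 4.34 to 4.54 in Tim-Dcr IP, so a raw gap between fractions holds for all genes together. Head markers were present, with a mean log2 level over 7 marker genes of 10.3 to 10.7 in wild-type INPUT. Markers of the male reproductive tract (9.62 to 10.3 over 16 genes) and of the midgut (7.99 to 8.94 over 12 genes) were also well measured in wild-type INPUT, although the labels name heads. The arrays hold bulk RNA, in which fewer cells of a type and less RNA per cell cannot be told apart.

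Among wild-type heads, whose labels differed in time and replicate alone, AttD, DptB, edin, Def and Drs varied more than most transcripts, while Mtk and BomS2 varied about as much as others or less. Among the peptides active against fungi or induced through Toll, Drs spanned log2 levels of 10.40 to 11.82 (median 11.49) over the 11 INPUT arrays, a 2.68-fold range with an SD of 0.42. Mtk spanned 12.46 to 13.22 (median 12.94, SD 0.22) and BomS2 12.14 to 12.71 (median 12.33, SD 0.17). Both had smaller SDs than Drs, and BomS2 varied by no more than 1.48-fold.

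Among the antibacterial peptides, DptB lay between 8.54 and 10.53 (median 9.77, SD 0.54), a 3.99-fold range. AttD lay between 5.11 and 7.37 (median 6.19, SD 0.66), a 4.80-fold range and the widest of the 7. Def lay between 6.69 and 8.20 (median 7.69, SD 0.44). The infection-induced edin lay between 5.33 and 6.77 (median 6.16, SD 0.50).

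Set against all probe sets past the filter on low values (log2 above 4 in at least 3 arrays), whose median SD over INPUT arrays was 0.18, AttD varied more than 99.3% of them. DptB exceeded 98.6%, edin 98.4%, Def 97.5% and Drs 97.0%. Mtk exceeded 66.0% and BomS2 41.4%. In the 12 IP arrays the same 5 genes had SDs between 0.49 and 0.67, Mtk had 0.26 and BomS2 0.11, against a median of 0.19. BomS2 in IP varied less than most transcripts, exceeding 5.27% of probe sets.

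**Figure D1:**
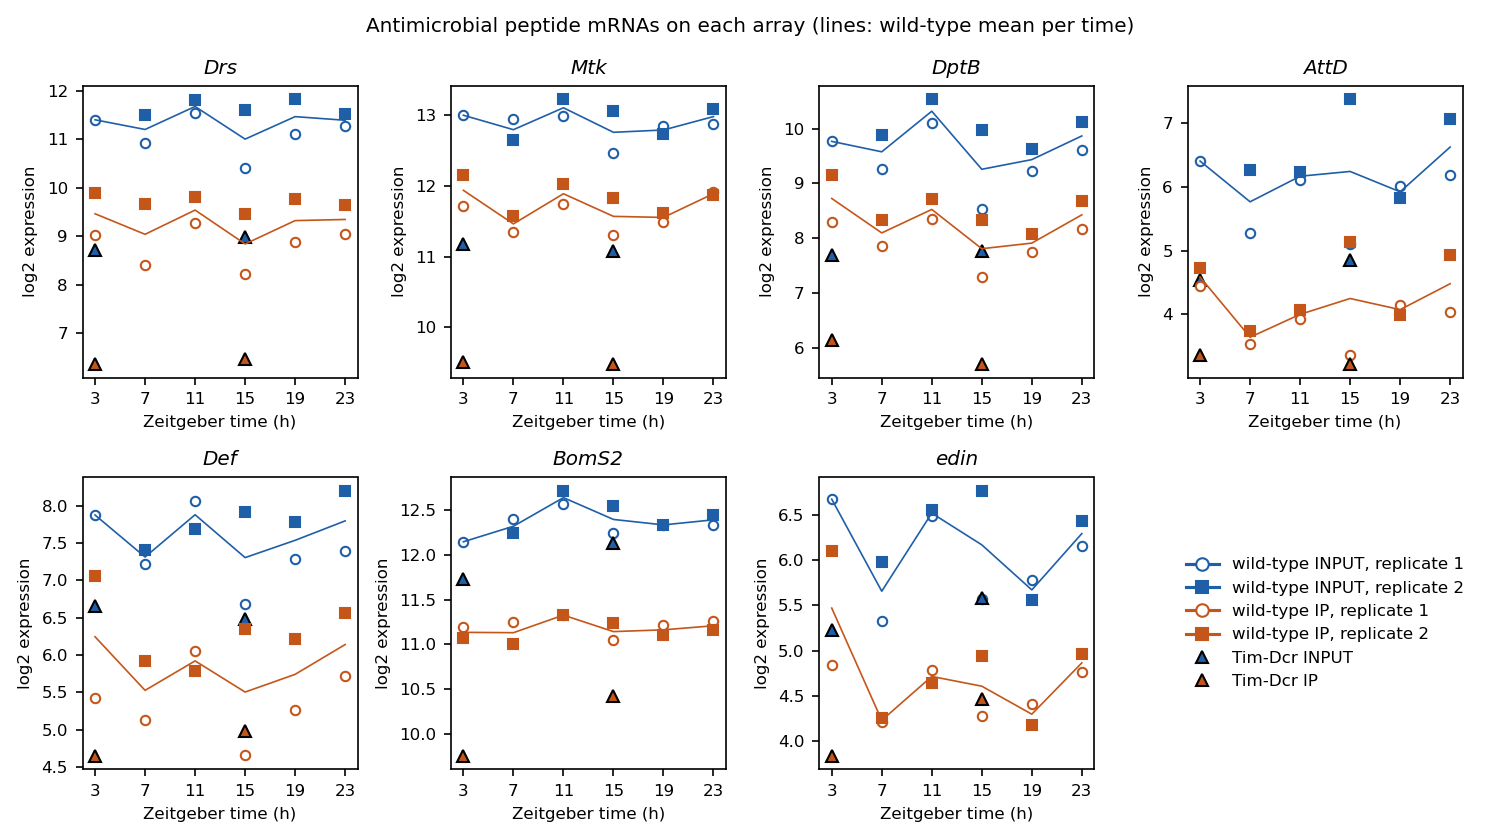
Deposited log2 expression value of each of the 7 genes (1 panel per gene, vertical axis) by Zeitgeber time in hours (horizontal axis), for INPUT and IP. Circles are replicate 1, squares replicate 2, triangles Tim-Dcr, and lines join the wild-type mean of each time. The ZT15 INPUT arrays stand apart from each other for AttD (5.11 and 7.37). The Tim-Dcr triangles of Drs lie below all wild-type points of the same fraction.

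The array that set most of the low ends was INPUT at ZT15, replicate 1. There Drs stood at 10.40, DptB at 8.54, AttD at 5.11 and Def at 6.69. In replicate 2 of the same time the values were 11.60 for Drs, 9.98 for DptB, 7.37 for AttD and 7.92 for Def. The 2 arrays differed by 1.20 for Drs, 1.44 for DptB, 2.26 for AttD, 1.23 for Def and 1.20 for edin, but by 0.30 for BomS2.

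All 7 genes lay below their own INPUT mean in ZT15 replicate 1, with a mean standardized level of -1.72 (in SDs of each gene), and again in ZT19 replicate 1, at -0.51. None of the 7 lay below its mean in replicate 2 at ZT11, ZT15 or ZT23, where the mean standardized level was 1.05, 0.95 and 0.82. In each cell marker list the low ZT15 array lay inside the range of the other INPUT arrays. Its mean log2 level was 10.2 for the fat body list against 10.1 to 10.4 in the other 10 INPUT arrays. For hemocytes (blood cells) it was 6.49 against 6.24 to 6.54. For head cells it was 10.37 against 10.33 to 10.74, near the low end. Midgut markers (8.43 against 7.99 to 8.94) and male reproductive tract markers (9.84 against 9.62 to 10.3) were likewise inside the range of the others.

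The genes tended to be high or low in the same INPUT arrays. All 21 pairs of the 7 genes had a positive Pearson r over the 11 arrays, from 0.32 to 0.89 with a median of 0.69. Of these, 12 had a permutation p under 0.05 after Benjamini-Hochberg adjustment over the 21 pairs, and 8 did by Spearman's rho. Pairs with BomS2 gave 1 of those 12 among 6 pairs, and pairs without it 11 among 15.

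Drs and DptB formed the tightest pair (r = 0.89, adjusted permutation p = 0.00903, rho = 0.76, adjusted permutation p = 0.0419), with r = 0.69 once the 2 arrays farthest from the median of Drs were left out. Next came DptB and Def (r = 0.82, adjusted permutation p = 0.0119, rho = 0.81), with 0.85 without the 2 farthest arrays. Drs and Def also had an r of 0.82 (adjusted permutation p = 0.0119), and 0.48 without 2 arrays. AttD and edin had 0.82 as well (adjusted permutation p = 0.0101), and 0.75 without 2 arrays.

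The number of pairs that passed rested on few arrays. Without INPUT ZT15 replicate 1, all 21 pairs were still positive (0.19 to 0.79, median 0.59), but 0 passed the adjusted permutation test, the lowest adjusted p was 0.0924, and 7 had an unadjusted permutation p under 0.05. The count was 7 without INPUT ZT19 replicate 1 and 5 without INPUT ZT23 replicate 2. Within the 6 INPUT arrays of replicate 1, 19 of 21 pairs were positive (-0.057 to 0.98, median 0.80), with 11 below 0.05 unadjusted and 3 adjusted by an exact permutation test. Those 6 arrays include ZT15 replicate 1, so they give no check on its weight. No correlation was computed within the 5 INPUT arrays of replicate 2.

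**Figure D2:**
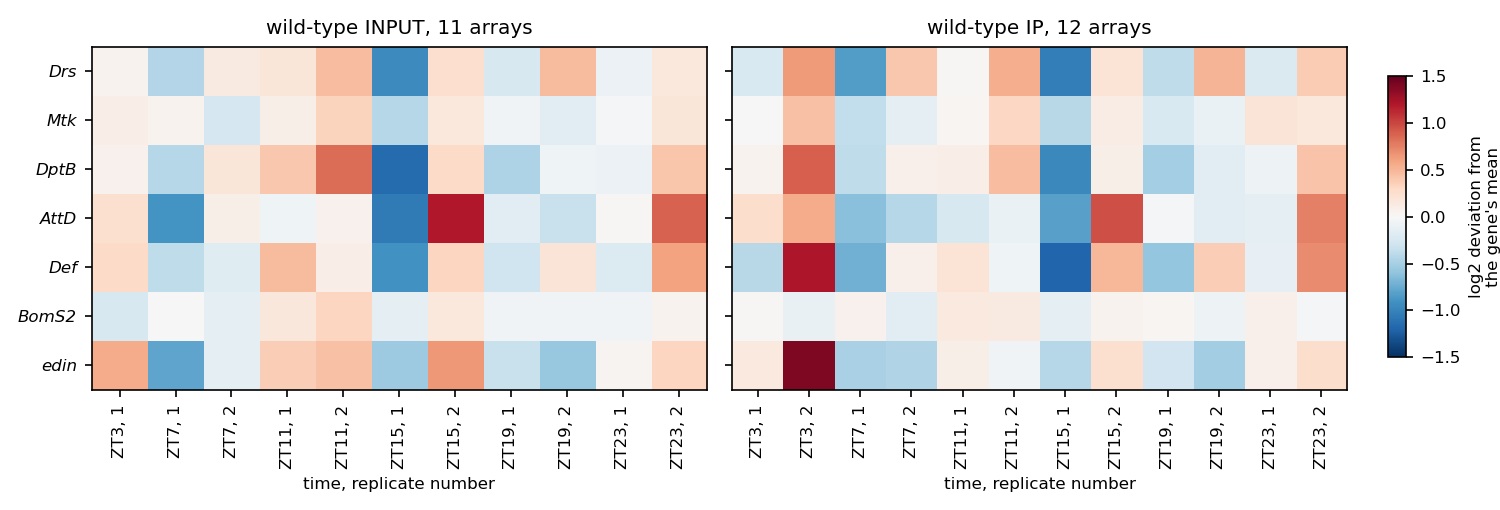
Deviation of each gene (vertical axis) from its own mean log2 level over the arrays of its fraction, for 11 wild-type INPUT and 12 wild-type IP arrays (horizontal axis, by time and replicate), in log2 units as colour. The column of INPUT ZT15 replicate 1 is below the mean for all 7 genes, and AttD there is at 5.11 against a median of 6.19.

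Levels in the precipitate tracked those in the extract from array to array. Across all probe sets past the filter, paired INPUT and IP arrays also deviated together from their time's means, with r of 0.381 to 0.664. The share of all probe sets that correlated between fractions was not counted. Over the 11 wild-type pairs of INPUT and IP arrays of the same time and replicate, the deposited levels of all 7 genes correlated between fractions. With arrays centred on their medians, 6 of the 7 did, and BomS2 gave r = 0.59 (adjusted permutation p = 0.0534) and rho = 0.61 (adjusted permutation p = 0.0520). DptB gave r = 0.97 and rho = 0.99, with an adjusted permutation p of 3.50e-05 for r, and Drs gave r = 0.94 and rho = 0.90, also at 3.50e-05, from the smallest p that 100000 resamples can give. AttD followed at r = 0.94 and rho = 0.79 (adjusted permutation p = 2.33e-04 for r).

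The remaining values of r were 0.90 for edin and 0.86 for Def (both at an adjusted permutation p of 0.00109), 0.74 for Mtk (0.0101) and 0.69 for BomS2 (0.0180). Their values of rho were 0.84, 0.86, 0.75 and 0.74. Without the 2 pairs farthest from the INPUT median, r stayed at 0.86 to 0.94 for Drs, DptB, AttD and edin, and was 0.67 for Def, 0.61 for Mtk and 0.46 for BomS2. Within the 6 pairs of replicate 1, r was 0.87 to 0.98 for Drs, DptB, AttD, Def and edin, 0.57 for Mtk (exact permutation p = 0.224) and 0.70 for BomS2 (exact permutation p = 0.117).

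Replicate number went with the level of Drs and DptB. Replicate 2 was above replicate 1 at all 5 INPUT times and all 6 IP times for both genes, and for neither fraction did another of the 7 do so. That pattern held for 5.83% of all probe sets tested in INPUT and 7.66% in IP. What the replicate numbers stand for beyond biological replicates is not given in the labels.

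In IP, limma put replicate 2 above replicate 1 by 0.90 for Drs (SE 0.11, adjusted p = 0.0308) and by 0.59 for DptB (SE 0.11, adjusted p = 0.0475). Def differed by 0.94 (SE 0.22, adjusted p = 0.0604), and BomS2 by -0.064. So 2 of the 7 passed upward, against 0.825% of all probe sets tested, and without moderation 0 did, with adjusted p of 0.140 for Drs and 0.152 for DptB. In INPUT, 0 of the 7 passed limma's test, where 0.00644% of probe sets passed upward. An unadjusted p under 0.05 was found for 4 of the 7, and for 1881 of 15517 probe sets. The INPUT differences were 0.60 for Drs (SE 0.14, adjusted p = 0.301) and 0.68 for DptB (SE 0.15, adjusted p = 0.301).

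No peptide gene was shown to follow the time of day. DptB had the widest range of time means in INPUT, 9.26 at ZT15 to 10.32 at ZT11. Those of edin ran from 5.66 at ZT7 to 6.68 at ZT3, where INPUT had a single array, and those of Drs spanned 0.67, with the lowest at ZT15 and the highest, 11.67, at ZT11. For Drs, Mtk, DptB, AttD, Def and edin, the gap between the 2 INPUT arrays of ZT15 was larger than the whole range of time means. For BomS2 it was not, with time means from 12.14 at ZT3 to 12.63 at ZT11 and a largest gap of 0.30.

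limma's F test of any difference between times passed 0 of the 7 in INPUT, where 0.296% of all probe sets passed, and 0 in IP, where 0.483% did. A 24 h rhythm passed for 0 in INPUT against 0.593% of all, and for 0 in IP against 0.928%. In each of these 4 tests, 0 of the 7 had an unadjusted p under 0.05. The unadjusted p in INPUT ran from 0.116 to 0.855 between times and from 0.177 to 0.983 for the rhythm, whose fitted peak-to-trough size was 0.082 to 0.43. IP gave 0.0527 to 0.739 and 0.247 to 0.824, with peak-to-trough sizes of 0.075 to 0.66.

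Relative to other transcripts, Drs and AttD were scarcer in the AGO1 precipitate than in the extract. As a count, 2 of 7 is near the share of all probe sets that were lower by the same test, 29.6%. The difference here is IP minus INPUT after each array was centred on its own median, averaged over the 6 times, since the fractions sit on different overall levels. Drs lay below 0 in 11 of 11 pairs, from -1.13 to -0.55, and the fitted difference was -0.78 (SE 0.21, limma adjusted p = 0.00362), or 1.72-fold lower. AttD also lay below 0 in 11 of 11 pairs, from -1.24 to -0.34, with a fitted -0.70 (SE 0.25, adjusted p = 0.0249), or 1.62-fold lower.

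In this unpaired fit the call for AttD is marginal. Its adjusted p was 0.0528 without INPUT ZT7 replicate 2, 0.0522 without INPUT ZT23 replicate 2 and 0.0528 without IP ZT23 replicate 1. Its IP values also lay near the filter's log2 level of 4, with 7 of 12 IP arrays above it. In a limma fit with INPUT and IP arrays paired, AttD was at -0.73 (adjusted p = 1.36e-08) and Drs at -0.84 (adjusted p = 3.83e-11).

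Def lay between -1.12 and -0.21, below 0 in 11 of 11 pairs, yet its fitted -0.45 (SE 0.24) had an adjusted p of 0.115. With the INPUT and IP arrays paired as a replicate block, Def was at -0.54 (adjusted p = 1.03e-06). DptB lay below 0 in 10 of 11 pairs (-0.53 to 0.16) with a fitted -0.13 (SE 0.18, adjusted p = 0.548), and at -0.21 (adjusted p = 0.00371) in the paired fit. For edin the count was 9 of 11 pairs (-0.63 to 0.25), with -0.15 (SE 0.16, adjusted p = 0.438), and -0.24 (adjusted p = 0.00869) in the paired fit.

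Mtk and BomS2 had fitted differences above 0 that did not pass the test. Mtk was below 0 in 2 of 11 pairs (-0.22 to 0.34) and BomS2 in 3 of 11 (-0.095 to 0.38). Both had a fitted difference of 0.13, with an SE of 0.10 and an adjusted p of 0.258 for Mtk, and an SE of 0.068 and an adjusted p of 0.103 for BomS2. In the paired fit BomS2 stood at 0.12 (adjusted p = 0.0479).

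Of the 7 genes, then, 2 were lower past limma's test, where 29.6% of all probe sets were lower, and 0 were higher, where 29.7% were. With the paired fit 6 of the 7 passed, 5 of them lower, where 69.1% of all probe sets passed in either direction. The median of the 7 was -0.15 against 0.012 over all probe sets tested. The difference itself did not vary detectably with time, with 0 of 7 past the F test (0.00644% of all) and unadjusted p of 0.829 to 1.00. On the deposited scale, without centring, all 7 were lower in IP, where 96.7% of all probe sets passed in either direction, Mtk by -1.19 and BomS2 by -1.18. In the Tim-Dcr pairs of ZT3 and ZT15 the centred difference was -0.95 and -1.19 for Drs, -0.15 and -0.75 for DptB, and 0.22 and -0.31 for AttD. Mtk stood there at -0.27 and -0.28, against -0.22 to 0.34 in the wild-type pairs. BomS2 stood at -0.57 and -0.39, against -0.095 to 0.38. Def was at -0.61 and -0.19, and edin at 8.7e-04 and 0.20. The share of all probe sets whose Tim-Dcr pairs lay below their wild-type pairs was not counted. No precipitate made with another antibody was used here, so unspecific binding is part of each value.

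**Figure D3:**
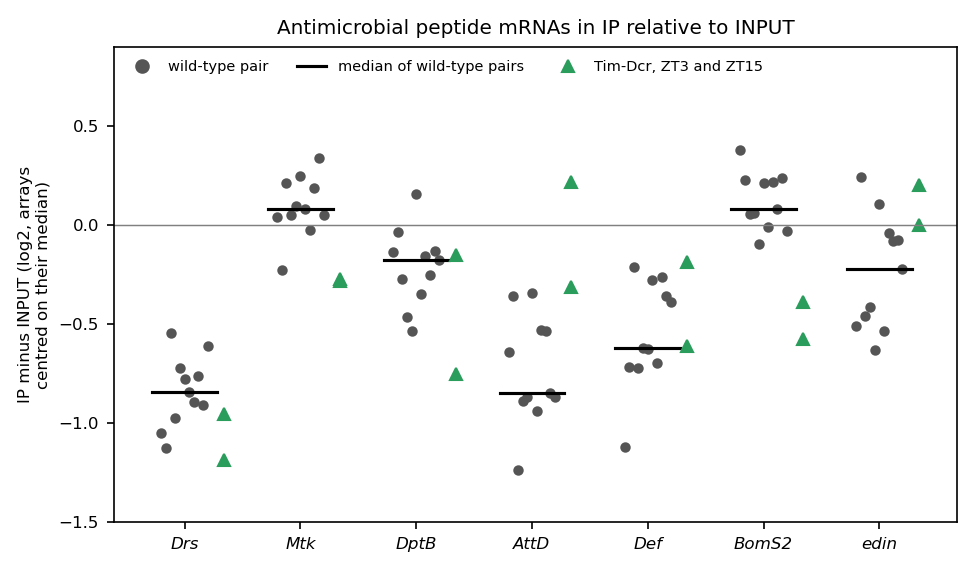
IP minus INPUT in log2 units, each array centred on its own median (vertical axis), for each of the 7 genes (horizontal axis). Points are the 11 wild-type pairs, bars their medians and triangles the 2 Tim-Dcr pairs. All points of Drs, AttD and Def lie below 0, and those of Mtk and BomS2 lie on both sides.

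Of the 7 genes, Drs, Mtk and DptB were lower in Tim-Dcr heads than in wild type in both fractions, AttD passed in INPUT and BomS2 in IP, while Def and edin passed in neither. On deposited values Drs, Mtk and DptB were lower by 3.33-fold or more, and with arrays centred on their medians by 2.60-fold or more. Each Tim-Dcr array was set against wild-type arrays of its own time, on deposited values, and 1 offset per fraction was fitted over ZT3 and ZT15. In INPUT, ZT15 weighed more in that fit, with 2 wild-type arrays against 1 at ZT3. In INPUT, Drs stood at 8.71 at ZT3 and 8.98 at ZT15, against a wild-type range of 10.40 to 11.82, and its offset was -2.31 (SE 0.47, limma adjusted p = 7.06e-04), or 4.96-fold lower. Mtk stood at 11.18 and 11.08 against 12.46 to 13.22, an offset of -1.74 (SE 0.20, adjusted p = 4.25e-06). DptB stood at 7.69 and 7.78 against 8.54 to 10.53, an offset of -1.74 (SE 0.40, adjusted p = 0.00186). These 3 genes lay below every wild-type INPUT array with a gap of 0.76 or more.

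AttD stood at 4.53 and 4.85 against 5.11 to 7.37, an offset of -1.60 (SE 0.54, adjusted p = 0.0219). Its call was lost without INPUT wild-type ZT3 replicate 1 (adjusted p = 0.138), without INPUT wild-type ZT15 replicate 2 (0.0799) and without either Tim-Dcr INPUT array (0.138 and 0.117). Def stood at 6.65 and 6.48 against 6.69 to 8.20 and did not pass, at -0.99 (SE 0.54, adjusted p = 0.136). BomS2 stood at 11.73 and 12.13 against 12.14 to 12.71, at -0.32 (SE 0.15, adjusted p = 0.0767). Def and BomS2 cleared the lowest wild-type array by only 0.035 and 0.0084.

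The values of edin, 5.23 and 5.58, overlapped the wild-type range of 5.33 to 6.77, with an offset of -0.96 (SE 0.40, adjusted p = 0.0575). Both Tim-Dcr arrays thus lay below every wild-type INPUT array for 6 of the 7 genes, all but edin, where 18.2% of all probe sets did so. By limma, 4 of the 7 were lower, against 17.0% of all probe sets tested, and 0 were higher. With a random replicate block edin also passed (adjusted p = 0.0281), and with replicate number as a term both Def (0.0260) and edin (0.0321) did, which made 5 and 6 of the 7.

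In IP, Drs, Mtk and DptB were again the genes with the lowest offsets. Drs stood at 6.36 and 6.47 against a wild-type range of 8.22 to 9.90, with an offset of -2.74 (SE 0.44, adjusted p = 1.26e-04), or 6.66-fold lower. Mtk stood at 9.51 and 9.48 against 11.30 to 12.16, at -2.26 (SE 0.18, adjusted p = 5.79e-07). DptB stood at 6.14 and 5.71 against 7.29 to 9.15, at -2.34 (SE 0.37, adjusted p = 1.16e-04).

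BomS2 also passed in IP, with 9.76 and 10.43 against 11.01 to 11.33, an offset of -1.05 (SE 0.14, adjusted p = 2.50e-05). AttD stood at 3.36 and 3.22, both under the log2 level of 4 of the filter, against 3.36 to 5.14, and did not pass at -1.13 (SE 0.51, adjusted p = 0.0792). Def, at 4.65 and 4.98, and edin, at 3.83 and 4.47, overlapped the wild-type arrays, with offsets of -1.06 (adjusted p = 0.0988) and -0.89 (adjusted p = 0.0650). So 4 of the 7 were lower in IP by limma, as were 17.0% of all probe sets, and 0 were higher. With a random replicate block AttD also passed (adjusted p = 0.0459), and with replicate number as a term or without IP wild-type ZT15 replicate 1 all 7 did. Of all probe sets, 42.8% passed with that block and 47.5% with that term, in either direction, against 44.0% in the fit as reported. Both Tim-Dcr arrays lay below all wild-type IP arrays for 5 of the 7, where 17.3% of all probe sets did so, AttD by 0.0044 only.

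The median offset of the 7 genes was -1.60 in INPUT and -1.13 in IP, while that of all probe sets tested was 0.23 and 0.17. Counted from that median, Drs was 5.83-fold lower in INPUT and 7.50-fold lower in IP. Tim-Dcr array medians lay 0.34 (INPUT) and 0.35 (IP) below wild type, and centring each array raised every offset by 0.36 in INPUT and 0.35 in IP. It put BomS2 in INPUT at 0.033 and so turned its sign.

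The drop was not shown to differ between fractions. For the offset in IP minus the offset in INPUT, 0 of the 7 passed limma's test, where 2.73% of all probe sets did. An unadjusted p under 0.05 was found for 3045 of 15835 probe sets, and for 1 of the 7 genes. That gene was BomS2, at -0.72 (SE 0.20, adjusted p = 0.0644), which passed without INPUT wild-type ZT15 replicate 2 (adjusted p = 0.0441), without IP wild-type ZT15 replicate 1 (0.0291) and without IP Tim-Dcr ZT15 (0.0168). It was followed by Mtk at -0.52 (SE 0.27, adjusted p = 0.310).

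Several lists of marker genes moved with the genotype. In INPUT, 15 of 16 male reproductive tract genes tested were lower in Tim-Dcr and 0 higher, with a median offset of -4.54. Their mean log2 level was 4.52 to 6.72, against 9.62 to 10.3 in wild type. Of 12 midgut genes, 11 were lower and 0 higher (median -2.37, mean level 5.03 to 5.54 against 7.99 to 8.94). Of 11 fat body genes, 0 were lower and 7 higher (median 0.40, mean level 10.8 to 10.9 against 10.1 to 10.4). Of 10 hemocyte genes, 0 were lower and 9 higher (median 0.91), and of 7 head cell genes, 0 were lower and 4 higher (median 0.56). Of all probe sets tested in INPUT, 17.0% were lower and 32.3% higher. In IP, 15 of 16 male reproductive tract genes and 10 of 12 midgut genes were lower, and 0 of either list higher. Of 11 fat body genes in IP, 1 was lower (bmm, -0.83) and 6 higher. Hemocyte genes had 6 of 10 higher there and head cell genes 2 of 7, with 0 lower in either list. The part of any of these tissues in the drop of the peptide genes was not tested. Across the 11 wild-type INPUT arrays the mean standardized level of the 7 genes had an r of -0.036 with the male reproductive tract list, -0.12 with the midgut list, -0.17 with hemocytes, 0.25 with the fat body list and 0.69 with the head cell list, as a description. Across the 12 wild-type IP arrays the values differed. There r was -0.51 with the male reproductive tract list, -0.63 with midgut, 0.45 with hemocytes, -0.098 with fat body and 0.32 with head cells.

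**Figure D4:**
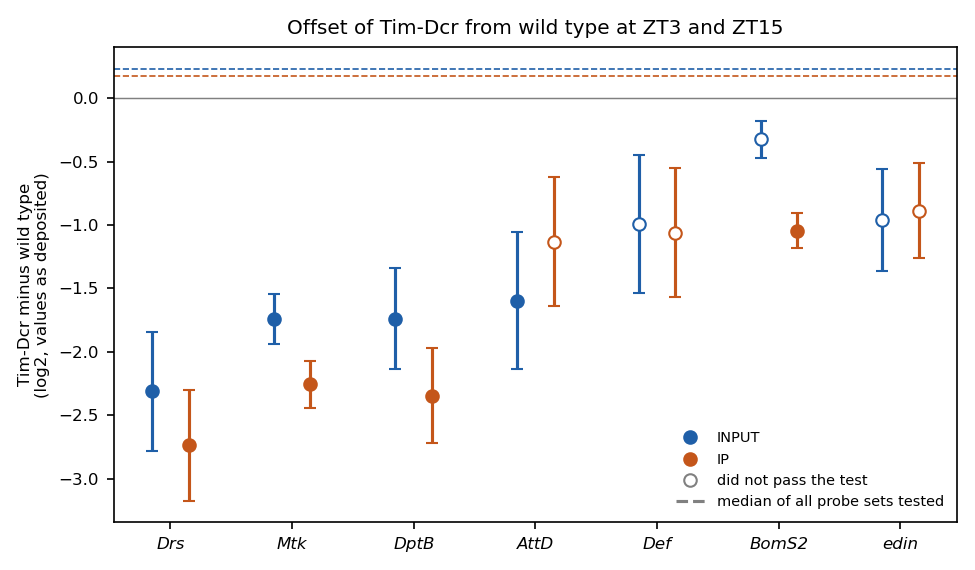
Tim-Dcr minus wild type in log2 units on deposited values (vertical axis) for each of the 7 genes (horizontal axis), in INPUT and IP. Bars are standard errors, filled points passed limma's test after adjustment, and dashed lines mark the median of all probe sets tested (0.23 in INPUT and 0.17 in IP). All 14 offsets lie below 0, and Drs is the lowest in each fraction.

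Genes that act upstream of the peptides are read here against all probe sets tested, of which 32.3% were higher and 17.0% lower in Tim-Dcr INPUT, and 27% (4270 of 15835) and 17.0% in Tim-Dcr IP. Of 16 Toll pathway genes on the array, 9 were higher in Tim-Dcr INPUT and 0 lower (median offset 0.52). They included Pli (Pellino, 1.42, adjusted p = 0.00241) and Traf6 (1.14, adjusted p = 7.06e-04), both signalling proteins acting with Toll. Of 15 Imd pathway genes, 5 were higher and 4 lower (median 0.18), with bon at 0.70 and akirin, a nuclear factor required for Relish targets, at -0.71. Of 9 recognition genes, from families that include sensors of microbial cell walls, 3 were higher and 0 lower (median 0.17). Among them was GNBP3, a sensor of fungi, at 0.81. The shares of higher genes in the Imd and recognition lists were near that of all probe sets.

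Of 41 other effector peptide genes listed, 19 were on the array under their own symbol, with 4 higher and 4 lower in Tim-Dcr INPUT (median -0.085) and 4 higher and 7 lower in IP (median -0.31). Anp (andropin), an antibacterial peptide of the male reproductive tract, was lowest at -5.61 (adjusted p = 1.64e-06) in INPUT, and Drsl4, a drosomycin-like gene, was highest at 2.04 (adjusted p = 5.35e-05). In Tim-Dcr IP, the Toll pathway list had 3 higher and 1 lower, the Imd list 3 and 1, and the recognition list 1 and 2.

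In IP minus INPUT, the same lists stand against 29.7% of all probe sets higher and 29.6% lower. Of the Imd list 2 of 15 were higher and 5 lower (centred, median 0.026), with pirk, an inhibitor of Imd signalling, at 2.39 (adjusted p = 5.40e-13) and Rel, the factor Relish that drives Imd targets, at -1.04 (adjusted p = 4.61e-09). Of the Toll list 7 of 16 were higher and 4 lower (median 0.13), led by Traf6 at 1.21 and the receptor gene Tl at 0.76. Among recognition genes 5 of 9 were higher and 1 lower (median 0.67), with PGRP-LB, an enzyme that degrades peptidoglycan, at 2.18 and PGRP-LA at 2.04. The other effector peptides had 4 of 19 higher and 6 lower (median -0.033), with BomT2, another bomanin, at -1.02 and Drsl5 at -0.88. None of these 4 lists had a gene past the test between times or for a 24 h rhythm in INPUT, by limma, and 1 recognition gene passed for a rhythm in IP.

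The gene whose level was most like the mean standardized level of the 7 over the 11 INPUT arrays was Srg1, with a Pearson r of 0.97 among 11235 genes. It also had r = 0.93 over the 12 IP arrays and was lower in Tim-Dcr INPUT at -1.06 (adjusted p = 0.0137). Next came Cyp9b1, a cytochrome P450 gene (r = 0.96), and grass, a serine protease of the Toll cascade (r = 0.94). They were followed by CG9312 (0.93), the serpin gene Spn88Eb (0.92), Jwa (0.92), CG34034 (0.91) and CG1572 (0.91). In IP these last 7 ranged from -0.59 for CG34034 to 0.79 for CG1572. In Tim-Dcr INPUT, Spn88Eb fell by 1.04 (adjusted p = 0.00634) and CG34034 by 0.93 (adjusted p = 4.84e-05), while grass rose by 0.45 (adjusted p = 0.0394) and CG9312 by 0.71 (adjusted p = 0.00220). The 8 genes were picked for this likeness, and all share the same arrays, so the values of r in INPUT are a description.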

How the data were processed

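TRIzol extraction and the Affymetrix IVT kit gave the labelled RNA, per the labels' protocols. Values were used as the authors deposited them, as log2 expression per probe set. The submitters' processing notes name GCRMA, and its version and array set are not given here. Array means were near equal inside each fraction (6.40 to 6.41 in wild-type INPUT, 5.15 to 5.18 in wild-type IP) and apart between them, so IP minus INPUT was taken on arrays centred on their medians. Groups came from titles. The title and time entry of IP replicate 1 at ZT3 say ZT3 while its description names another time, and ZT3 was used. The highest correlation between arrays was 0.996, and no array repeated another.

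After 183 control probe sets were left out, 18769 remained (13647 with 1 gene symbol, 402 with several, 4720 with none). The gene IDs of all 7 genes matched the RefSeq gene table. The log2 values were tested in R 4.3.3 with limma 3.58.1 and Benjamini-Hochberg adjustment over all probe sets above 4 in at least 3 arrays (15517 for wild-type tests, 15835 with Tim-Dcr, all 7 genes among them) at 0.05. Wild-type arrays were fitted with 12 fraction-by-time means (11 residual degrees of freedom), rhythm with a cosine and a sine term of 24 h per fraction (17), and Tim-Dcr as an offset per fraction (13). The design text calls replicates biological. Precision is limited by how few arrays there are. Permutation tests were two-sided with 100000 resamples, or exact with 6 arrays. The script was tested on simulated data. Python 3.11.15 with pandas 2.3.3 and matplotlib 3.10.9 made tables and figures.

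Across probe sets, an INPUT array and the IP array of its number deviated together from their time's means, with r of 0.417, 0.394, 0.664, 0.429 and 0.381 (ZT7 to ZT23), so title numbers were read as pairing both fractions. Members and gene lists were chosen with earlier results of these data known. All 7 genes were named. Otherwise the 8 genes with the highest r to the mean of the 7 in INPUT were named. Of each immune list, up to 2 of the genes changed most past the test were named for IP minus INPUT and for Tim-Dcr INPUT. For Tim-Dcr IP these lists were given as counts, with a median for the effector peptides. A gene was read from its probe set with the highest mean. Alternatives were other scalings, filters, moderation, replicate blocks and each array left out. The fits with replicate number as a term or without time terms, the tests of replicate 2 minus 1 and of IP minus INPUT between times, and the correlations within replicate 1 were chosen after seeing the data.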

Additional observations from a re-analysis of the deposited data

How the results depend on the processing

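Of 1792 values of single genes under an alternative, 1720 kept their direction and their side of the threshold, 47 came to pass it, 8 no longer passed it and 17 turned sign. For IP minus INPUT, 2 of the 7 genes passed, where 59.3% of all probe sets did. On values as deposited 7 did (96.7% of all), where Mtk turned to -1.19 and BomS2 to -1.18. The count was 1 without moderation (57.9% of all) and 4 with a random replicate block (67.0% of all). It was 6 with paired arrays as a fixed replicate block (69.1% of all), and 1 to 3 with 1 array left out. For Tim-Dcr in INPUT, 4 passed (49.3% of all) and 5 did with a random replicate block (46.4% of all). The count was 6 with replicate number as a term (51.3% of all) and 3 to 6 with 1 array left out. For Tim-Dcr in IP, 4 passed, 7 did with replicate number as a term (47.5% of all, against 44.0%), and 4 to 7 with 1 array left out, 7 being without IP wild-type ZT15 replicate 1. Centring put BomS2 in Tim-Dcr INPUT at 0.033. For the difference of both Tim-Dcr offsets, 0 passed (2.73% of all). The count was 1 with robust moderation (2.66% of all), with a random replicate block (4.55% of all) and without time terms (8.10% of all). With 1 array left out it was 0 to 1, and the gene was BomS2 each time. That difference turned sign for Def with a random replicate block (0.091) and with replicate number as a term (0.085). With 1 array left out it ran from -0.60 to 0.47 for Def, from -0.68 to 0.82 for edin and from -0.065 to 1.07 for AttD. Of all 21 pairs, 12 were correlated, 3 were within replicate 1, and 0 to 14 with 1 INPUT array left out. Why these values moved was not tested. AttD in IP, and AttD and edin in Tim-Dcr IP, lay near the filter's level, where array values carry little signal over background. Tim-Dcr has 1 array per fraction and time, so it has no replicates within a time. Its tests use a spread pooled over the arrays of both genotypes, most of it from wild type.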
